A study of Homo sapiens with 4 samples.

Results

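Of 100205 regions that gained ATAC-seq signal with at least 1 of 3 anthracyclines in K562 cells, 4405 (4.40%) were listed as gained with both doxorubicin and N,N-dimethyldoxorubicin but not with aclarubicin. They were chosen by the lists, whose regions all had a p of at most 0.05 and a log2 fold over control of at least 1.5: a member had to stand in the deposited lists of doxorubicin and of N,N-dimethyldoxorubicin and to be missing from the aclarubicin list. The members made up 6.60% of the doxorubicin list, 8.35% of the N,N-dimethyldoxorubicin list and 13.3% of the 33140 regions in both lists, and together they covered 3.92 Mb. No value for aclarubicin is given at any member, so a gain with aclarubicin that missed these limits cannot be told from no gain.

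ATAC-seq maps open chromatin, since its transposase inserts adapters mainly into DNA that is not wrapped on a nucleosome. Anthracyclines slide between DNA base pairs. Doxorubicin traps topoisomerase II on cut DNA, which leaves double-strand breaks, and it also pushes histones off the DNA. Adding methyl groups to the amine of its sugar gives N,N-dimethyldoxorubicin, known to evict histones while making few breaks, and aclarubicin, which bears a chain of several sugars, is known for the same pair of properties. The set described here thus joins a drug known for breaks with its close analog that makes few, and leaves out the other drug that makes few.

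Cells of the chronic myelogenous leukaemia line K562 were treated for 4 h. Doxorubicin (Doxo) and N,N-dimethyldoxorubicin (called diMe-Doxo) were given at 10 µM and aclarubicin (Acla) at 20 µM. Control cells were left untreated, and each group is 1 GEO sample. Each list holds 2 treated and 2 control libraries, and the control reads were identical in all lists wherever a region was shared, so every fold in this report rests on the same 2 control libraries. Nothing in the labels tells whether a drug's 2 libraries were separate cultures, so the p-values below measure only the spread between libraries, which may be technical. In its own list a treated library held 3534855 to 7266289 reads. These totals cover listed regions only. No control value was 0 and the lowest was 1, so a control value of 1 may be a floor that also covers regions without a read, and the authors' folds over such controls depend on it. The lists give positions on GRCh37, without saying whether the start counts from 0 or 1, and no gene names, and no annotation of that build was used here, so regions are named by position, without genes or sequence. For the same reason the identity of the cells was not checked against marker genes.

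By the values that chose them, the members had larger gains with Doxo and small gains with diMe-Doxo. In the authors' deposited tables their median log2 fold over control was 3.01 with Doxo (quartiles 2.46 and 3.83, range 1.52 to 6.85) and 2.12 with diMe-Doxo (quartiles 1.90 and 2.35, range 1.5 to 3.84). Regions gained with all 3 drugs had a median log2 fold of 3.13 with Doxo and 2.82 with diMe-Doxo. The members thus resembled regions of all 3 drugs in their Doxo fold and lay lower in their diMe-Doxo fold, which was close to the median of 2.14 at regions of diMe-Doxo alone. The limit on p was not adjusted for the number of regions. With diMe-Doxo, 2113 members had an authors' false discovery rate (FDR) above 0.05, as did 805 with Doxo, and 1919 had an FDR of at most 0.05 with both drugs. Each of these values is part of the choice of members and carries no test.

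**Figure D1:**
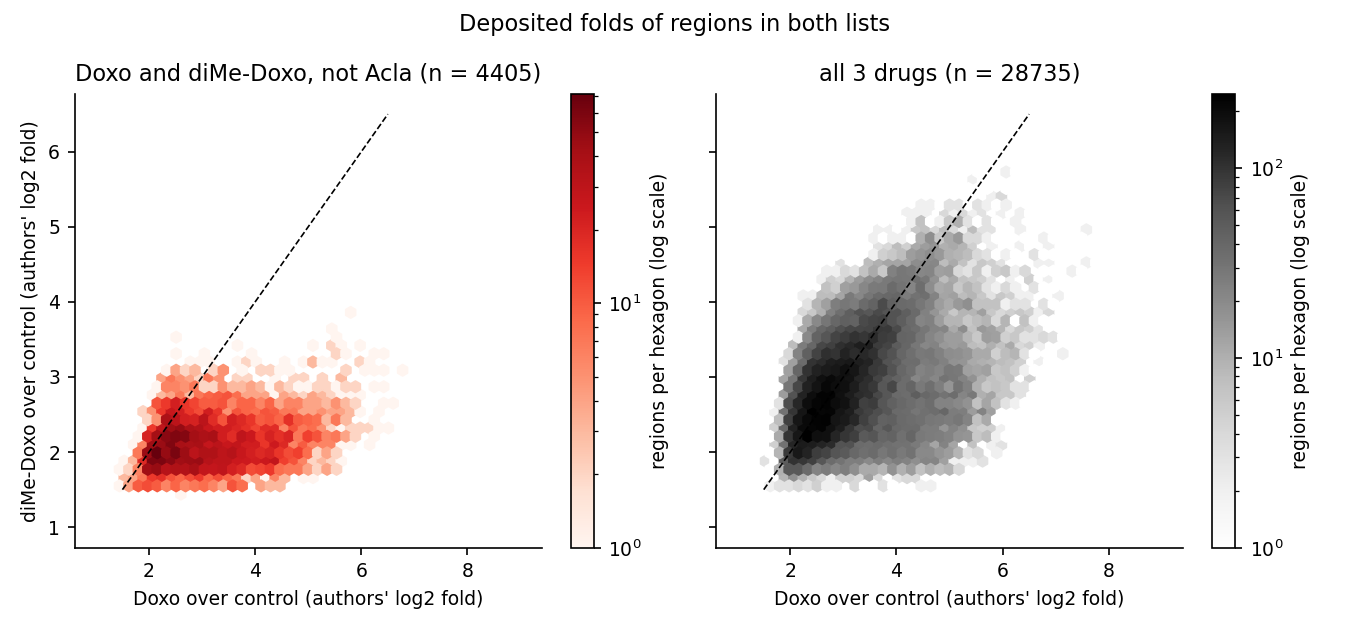
Authors' log2 fold over control with Doxo (x axis) and with diMe-Doxo (y axis) at the 4405 regions of both drugs without Acla (left) and the 28735 regions of all 3 drugs (right); colour gives the number of regions on a log scale and the dashed line marks equal folds. The left cloud is flat, with diMe-Doxo folds up to 3.84 beside Doxo folds up to 6.85, while the right cloud extends along the dashed line.

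Whether a region of both lists was missing from the Acla list went with its diMe-Doxo fold more than with its Doxo fold. Of 543 regions with a diMe-Doxo log2 fold from 1.5 to below 1.75, 329 (60.6%) were members. The share was 30.1% from 2 to below 2.25, 6.45% from 2.5 to below 3 and 0.116% from 3.5 to below 4, and none of the 2093 regions at 4 or more was a member. Across bins of the Doxo fold the share ran between 10.4% (at 5 or more) and 22.1% (below 2). Within the members the median diMe-Doxo log2 fold stayed between 1.86 and 2.39 over all bins of the Doxo fold. In regions of all 3 drugs it ran from 2.22 in the lowest Doxo bin to 3.29 in the highest.

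**Figure D2:**
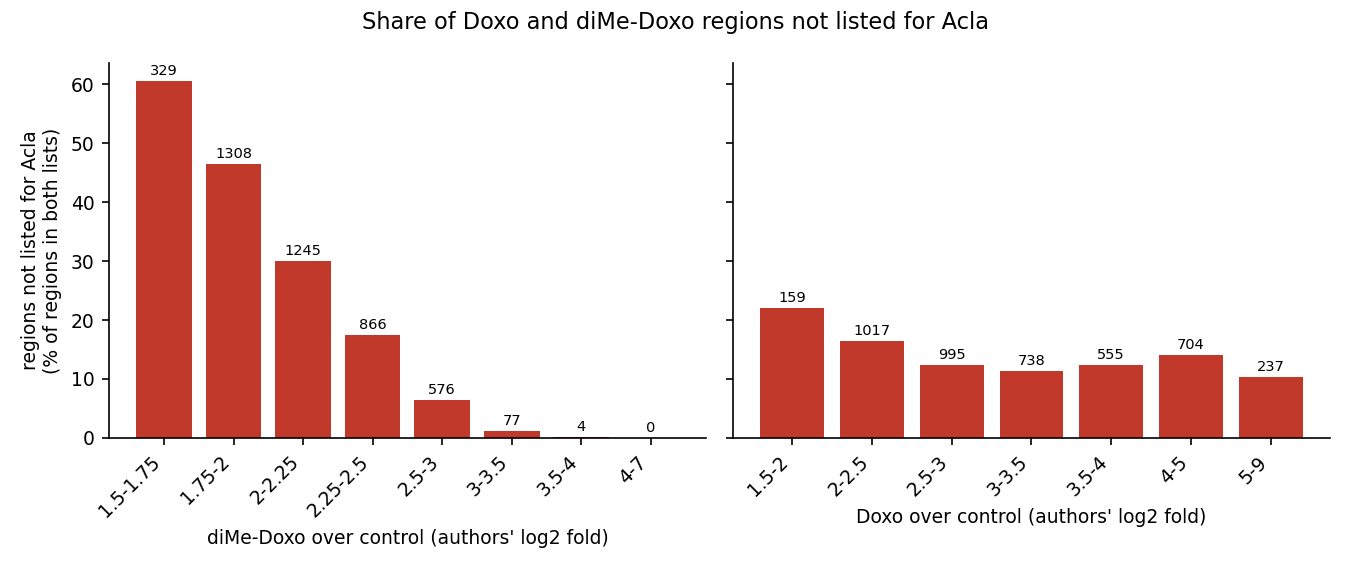
Percentage of regions in both the Doxo and diMe-Doxo lists that were not listed for Acla (y axis), by diMe-Doxo fold (left) and by Doxo fold (right), both as the authors' log2 fold over control; numbers above the bars count members. The share falls from 60.6% to 0 along the diMe-Doxo axis and lies between 10.4% and 22.1% along the Doxo axis.

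The diMe-Doxo p was above 0.04, close to its limit, at 740 members (16.8%), against 2.73% of regions of all 3 drugs and 7.65% of the whole diMe-Doxo list. These 740 had a median log2 fold of 3 with Doxo and 1.86 with diMe-Doxo. The Doxo p was above 0.04 at 221 members (5.02%), against 4.08% of regions of all 3 drugs and 5.30% of the whole Doxo list. Just outside the choice stood 829 regions of all 3 drugs whose Acla p was above 0.04. Their median log2 folds were 2.99 with Doxo, 2.24 with diMe-Doxo and 1.86 with Acla. The lowest fold in the Acla list differed with the control reads. Among 21091 Acla regions with a value of 1 in each control library, no log2 fold was below 2.13. For the 3943 members whose pair of control reads occurred at 20 or more Acla regions, the lowest Acla log2 fold listed at the same pair had a median of 1.80 and ranged from 1.5 to 2.13. These values describe the list and set no ceiling on a gain that was not listed.

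Some members had a called peak without any drug. The authors had called a peak in both control libraries at 410 members (9.31%), in 1 at 510 (11.6%) and in none at 3485 (79.1%, 95% Wilson interval 77.9 to 80.3, for counting error only). No control peak was present at 88.8% of regions of all 3 drugs, 75.7% of regions of Doxo alone and 87.2% of regions of diMe-Doxo alone, and both controls had a peak at 3.26%, 11.9% and 4.50% of these sets. Mean control reads per member were 4.25 and 3.46 in the 2 libraries, against 2.64 and 2.28 at regions of all 3 drugs. Each control library stood at the lowest value, 1, at 19.8% of members and at 31.4% of regions of all 3 drugs. In the shares with control peaks the members stood nearer to regions of Doxo alone than to regions of all 3 drugs. Control reads enter the folds that chose the members, so these shares are a description and carry no test.

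Members with a control peak were wider, as were regions of all 3 drugs. Where the controls held more reads, a larger share of the regions in both lists were members. Members spanned 91 to 4884 bp with a median of 749 bp, against 1019 bp for regions of all 3 drugs and 600 bp for regions of Doxo alone. With no control peak the median member was 670 bp wide, with 1 control peak 1070 bp and with 2 control peaks 1593 bp. For regions of all 3 drugs these medians were 983, 1296 and 1617 bp. The members' share of regions in both lists was 8.81% where the controls held 2 reads in sum, 25.1% at 10 to 19 reads and 44.2% at 20 to 49 reads. At 50 or more reads 20 of 26 regions were members. Among regions narrower than 500 bp 32.8% were members, and the share was lowest, 7.93%, from 1000 to below 1500 bp. It was 9.13% from 1500 to below 2000 bp, 11.4% from 2000 to below 3000 bp and 13.8% above that.

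In the treated libraries a peak had been called in both Doxo libraries at 56.7% of members and in neither at 16.2%, against 52.8% and 18.8% of regions of all 3 drugs. For diMe-Doxo, peaks stood in both libraries at 69.5% of members and in neither at 6.42%, against 72.7% and 6.66% of regions of all 3 drugs. In the peaks of treated libraries the members were thus close to the regions of all 3 drugs. The 283 members without any diMe-Doxo peak had a median width of 445 bp, and their median authors' log2 fold was 4.26 with Doxo and 2.14 with diMe-Doxo.

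Doxo and diMe-Doxo differ by the methyl groups on the sugar's amine, and their dose and time were matched. Their contrast was no criterion of the lists and was tested, but it rests on the same reads and control scale as the folds that chose the members. The tested difference is close to the Doxo fold minus the diMe-Doxo fold, so it largely restates those folds and is no independent support. These drugs were the only pair of compounds compared, with edgeR's quasi-likelihood test on recovered reads over all 33140 regions in both lists. Library scale came from the controls that the lists share, so that a Doxo read counted as 0.503 or 0.498 and a diMe-Doxo read as 0.202 or 0.208. The authors' factors of control libraries 1 and 2 were 1.44 and 1.39 in the Doxo list, but 2.41 and 2.03 in the diMe-Doxo list. The 2 controls thus give somewhat different scales, and their geometric mean was used. On this scale the median member had 23.6 and 24.4 reads in the Doxo libraries and 12.1 and 10.4 reads in the diMe-Doxo libraries. Regions of all 3 drugs had medians of 17.1 and 17.9 with Doxo and 15.8 and 13.1 with diMe-Doxo. The members' medians were thus above those of regions of all 3 drugs with Doxo and below them with diMe-Doxo.

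At an adjusted p of at most 0.05 the test called 2235 members (50.7%) higher with Doxo and 1 member lower. Over all regions in both lists 28.9% were called higher and 2.72% lower, and among regions of all 3 drugs 25.6% and 3.13%. The median log2 difference of Doxo minus diMe-Doxo was 0.86 over members (quartiles 0.31 and 1.69, range -1.01 to 4.10) and 0.28 over regions in both lists. TMM, a scaling that assumes most regions are equal, moved the median of all regions in both lists to -0.05 and that of the members to 0.54. The members' median exceeded that of regions in both lists by 0.58 with the control scale and by 0.59 with TMM. With TMM 1914 members (43.4%) were called higher and 30 lower, against 23.6% and 10.6% of all regions in both lists, and all 1914 were among the 2235. Limma-trend on log2 reads called 2186 members higher and 1 lower, with 28.2% and 2.75% over all regions in both lists. DESeq2 called 1981 higher and 1 lower, with 24.8% and 0.824% over all.

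Both Doxo libraries lay above both diMe-Doxo libraries at 3087 members (70.1%) and below both at 82, against 44.6% and 14.2% of all regions in both lists. The log2 difference was at least 1 at 2006 members, at least 2 at 795 and at least 3 at 126, and it was below 0 at 430. Over members the upper quartile was 1.69, the 95th percentile 2.79 and the highest value 4.10. Over all regions in both lists these were 0.95, 2.43 and 4.43, so large differences were not confined to members. The SD between the 2 libraries of a drug, pooled over members on the log2 scale, was 0.38 for Doxo and 0.32 for diMe-Doxo.

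**Figure D3:**
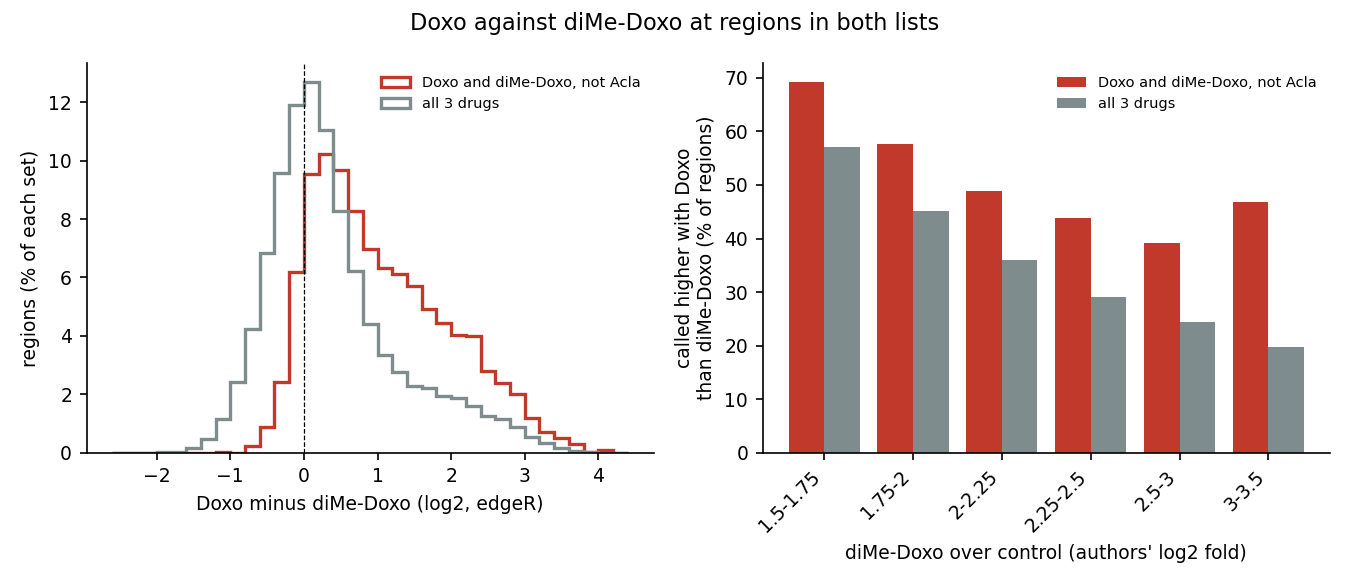
Left, distribution of the log2 difference of Doxo minus diMe-Doxo (x axis, edgeR, control scale) as a percentage of each set (y axis), for regions of both drugs without Acla (red) and of all 3 drugs (grey). Right, percentage of regions called higher with Doxo (adjusted p at most 0.05) by the authors' diMe-Doxo log2 fold; the red bars run from 39.2% to 69.3% and stand above the grey bar in each of the 6 bins.

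The weaker diMe-Doxo fold of the members was part of how they were chosen, so the calls were also set side by side at like diMe-Doxo folds. This does not remove the choice. At a like diMe-Doxo fold the difference largely restates the Doxo fold, which was also a criterion, so these shares are a description. From 1.75 to below 2 the median authors' log2 fold with Doxo was 2.89 at members and 2.6 at regions of all 3 drugs. At a diMe-Doxo log2 fold from 1.75 to below 2, 57.7% of 1308 members and 45.1% of 1502 regions of all 3 drugs were called higher with Doxo, with median log2 differences of 1.01 and 0.70. From 2.25 to below 2.5 the shares were 43.8% of 866 members and 29.2% of 4105 regions of all 3 drugs, and from 2.5 to below 3 they were 39.2% of 576 members and 24.4% of 8359. Of the 829 regions of all 3 drugs just inside the Acla list, with an Acla p above 0.04, 45.8% were called higher with Doxo and none lower, with a median log2 difference of 0.69. This share lay nearer to the members' 50.7% than to the 25.6% of the whole set of all 3 drugs. No test of the members against other regions was made.

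No difference between the drugs was detectable at 2169 members (49.2%). Their median log2 difference was 0.30, and the median 95% interval of the difference, from limma on log2 reads, ran from -0.46 to 1.01. This interval lay wholly within 1 of 0 at 893 of them and its upper end exceeded 1 at 1104. The missing call does not show that the drugs act alike at these members.

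The 5 members whose larger FDR of the 2 drugs was lowest were on 5 chromosomes. The first, on chromosome 1 at 244893410-244894674, had 310 and 297 reads in the Doxo libraries, 171 and 156 in the diMe-Doxo libraries and 5 and 1 in the controls. On the control scale the Doxo libraries had 156 and 148 and the diMe-Doxo libraries 34.6 and 32.5, and the 3 groups did not overlap. Its authors' log2 fold was 5.64 with Doxo (FDR 9.35e-08) and 3.40 with diMe-Doxo (FDR 0.000259), and Doxo exceeded diMe-Doxo by 2.18 on the log2 scale (edgeR adjusted p 3.18e-22). The next members by this rule were on chromosome 2 at 25383673-25385011 and on chromosome X at 334190-334759. At the chromosome 2 region the authors' log2 folds were 5.37 with Doxo and 3.44 with diMe-Doxo. The member on chromosome X had the highest diMe-Doxo log2 fold of all members, 3.84, beside 5.81 with Doxo, with 105 and 120 recovered reads in the Doxo libraries, 74 and 66 in the diMe-Doxo libraries and 1 in each control. On chromosome 7 at 143207774-143209402, a region with a peak in both controls held 228 and 252 control-scaled reads with Doxo, 70.7 and 65.2 with diMe-Doxo and 10 and 16 in the controls. The member on chromosome 15 at 99192831-99194143 had 162 and 170 control-scaled reads with Doxo, 24.9 and 24.8 with diMe-Doxo and 4 and 1 in the controls. At all 5 both Doxo libraries were above both diMe-Doxo libraries, and the edgeR adjusted p was at most 7.93e-13. The folds behind the naming rule hold the same reads, so these calls add no support. At a Doxo log2 fold from 4 to below 5, 99.9% of members and 65.9% of regions of all 3 drugs were called higher. At 5 or more the shares were 100% and 93.0%.

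The members with the highest mean fold had large Doxo folds and diMe-Doxo log2 folds from 3.06 to 3.84, the region on chromosome X among them. On chromosome 9 at 5040748-5042090, 114 and 117 control-scaled reads with Doxo stood beside 11.1 and 5.83 with diMe-Doxo and 1 read in each control. The authors' log2 folds were 6.85 with Doxo, the highest of all members, and 3.08 with diMe-Doxo. An Acla region lay 418 bp away. On chromosome 13 at 50707139-50708254 the recovered reads were 159 and 193 with Doxo, 52 and 45 with diMe-Doxo and 1 in each control, and the nearest Acla region was 870462 bp away. For chromosome 8 at 61626551-61627879 the authors' log2 fold was 6.28 with Doxo and 3.27 with diMe-Doxo. For chromosome 20 at 21376327-21378380 it was 6.42 with Doxo and 3.06 with diMe-Doxo. Both had 3 and 1 control reads, and at so few control reads 1 read more or less moves a fold strongly.

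The widest members already carried peaks in both controls. The 5 widest measured 3676 to 4884 bp, had a peak in both controls, and were called higher with Doxo. Among regions of all 3 drugs, 58.8% of those 3000 bp or wider were called higher too, against 25.6% at any width. On chromosome 2 at 121100649-121104797 there were 408 and 443 control-scaled reads with Doxo, 97.8 and 86.0 with diMe-Doxo and 21 and 31 in the controls, a log2 difference between the drugs of 2.21 (edgeR adjusted p 2.99e-25). On chromosome 10 at 45936550-45940226 761 and 823 recovered reads stood in the Doxo libraries, 421 and 360 in the diMe-Doxo libraries and 16 and 42 in the controls, a log2 difference of 2.31 (edgeR adjusted p 4.04e-27). The region on chromosome 4 at 141563028-141566744 differed least of the 5, with 265 and 302 control-scaled reads with Doxo, against 176 and 152 with diMe-Doxo, a log2 difference of 0.79 (edgeR adjusted p 0.000355). Its control libraries held 38 and 1 reads and so differed widely.

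Between the drugs, the lowest adjusted p among members belonged to chromosome 4 at 39771206-39773522. Its recovered reads were 533 and 568 in the Doxo libraries, 112 and 87 in the diMe-Doxo libraries and 3 and 4 in the controls, although a peak had been called in both controls. On the control scale the counts were 268 and 283 with Doxo and 22.6 and 18.1 with diMe-Doxo, a log2 difference of 3.75 (edgeR adjusted p 1.53e-56, with TMM 6.51e-13), and the limma 95% interval was 3.29 to 4.11. The nearest Acla region was 1002697 bp away. Chromosome 17 at 56564619-56566206 and chromosome 7 at 6692326-6693397 followed, with log2 differences of 4.06 and 3.74 (edgeR adjusted p 8.22e-55 and 9.72e-52). The chromosome 17 region had 128 and 166 control-scaled reads with Doxo, against 10.9 and 6.67 with diMe-Doxo. The largest differences among members, chosen after their values were seen, were 4.10 on chromosome 22 at 38220399-38221783 and 4.09 on chromosome 7 at 44733341-44734230, and at neither had a peak been called in a diMe-Doxo library. The authors' FDR with diMe-Doxo was 0.0707 and 0.053 at these regions, above 0.05, and each control library stood at the lowest value, 1.

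The 1 member called lower with Doxo was on chromosome 8 at 104152146-104153711. It held 30.2 and 41.3 control-scaled reads with Doxo, 64.9 and 52.7 with diMe-Doxo and 14 and 6 in the controls, with a peak in both controls. The log2 difference was -0.72 (edgeR adjusted p 0.0103, with TMM 4.89e-05), and the limma 95% interval was -1.17 to -0.25. At an unadjusted p under 0.05, 2 members were lower with Doxo. The next members in this direction, on chromosome 8 at 11338372-11339001 and at 123692967-123694109, had log2 differences of -1.01 and -0.59 and did not pass the limit (edgeR adjusted p 0.0867 and 0.178), though both did with TMM (edgeR adjusted p 0.0223 and 0.0200).

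**Figure D4:**
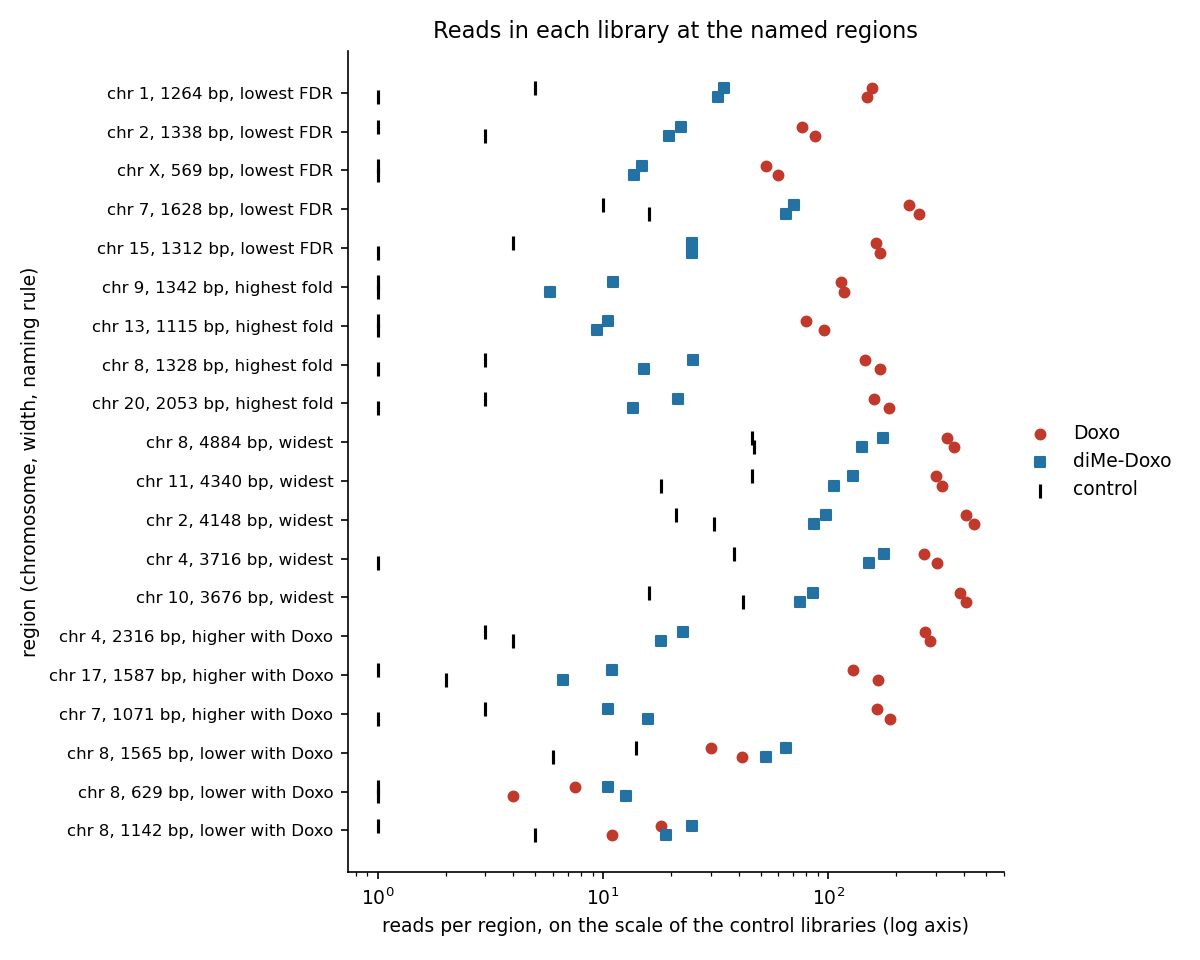
Reads in each library at the named regions, on the scale of the control libraries (x axis, log axis), with 1 row per region labelled by chromosome, width and the rule that named it. Doxo points (red) lie right of the diMe-Doxo points (blue) in the upper 17 rows and left of them in the lowest 3 rows; black bars mark the controls.

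The members were found on every chromosome from 1 to 22 and on X. Chromosomes 2 and 1 held the most, 479 and 401. The share of regions in both lists that were members was 13.3% over the genome. It was lowest on chromosome 19, where 40 of 616 such regions were members (6.49%, 95% Wilson interval 4.80 to 8.72), followed by chromosome 17 with 61 of 698 (8.74%, 6.86 to 11.1) and chromosome X with 108 of 1183 (9.13%, 7.62 to 10.9). It was highest on chromosome 14 with 122 of 680 (17.9%, 15.2 to 21), and on chromosomes 18 and 20 it was 16.3% each. No gene annotation was used here, and whether the share goes with gene density over the chromosomes was not tested. The intervals cover counting error only, and neighbouring regions are not independent. With an FDR limit of 0.05 and a log2 fold limit of 2 for both drugs the share was 1.45% on chromosome 19 (6 of 415), 9.44% on chromosome 14 (47 of 498) and 6.80% over the genome.

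The median log2 difference of members was between 0.67 on chromosome 21 and 1.37 on chromosome 19, beside 0.52 and 1.23 over all regions in both lists on the same chromosomes. On chromosome 21 the test called 19 of 45 members (42.2%) and 37.1% of all regions in both lists higher with Doxo. On chromosome 19 it called 24 of 40 members and 60.7% of all regions in both lists, so the members' share there was that of the chromosome. On chromosome 4 it called 52.4% of members and 22.7% of all regions in both lists. The median difference on chromosome 4 was 0.98 over members and 0.17 over all regions in both lists.

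**Figure D5:**
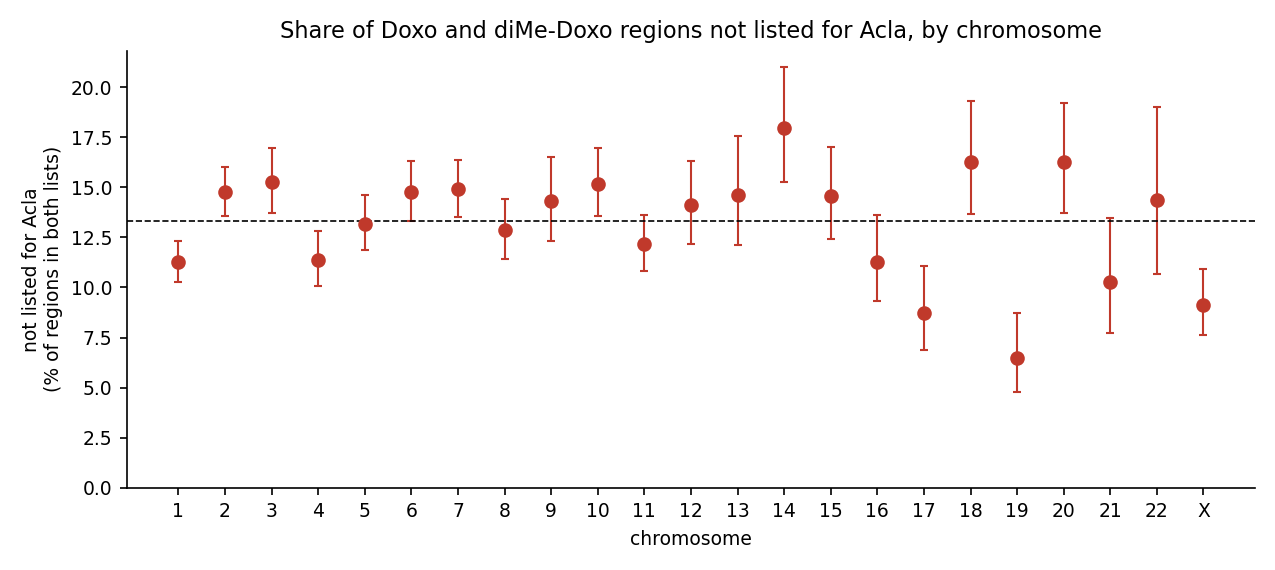
Percentage of regions in both the Doxo and diMe-Doxo lists that were not listed for Acla (y axis), by chromosome (x axis), with 95% Wilson intervals for counting error; the dashed line is the 13.3% of the whole genome. Chromosome 19 (6.49%) is lowest and chromosome 14 (17.9%) highest.

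Most members had no member beside them among the listed regions, of which members made up only 4.40%. Walking along each chromosome through all 100205 listed regions, 3445 members had no member next to them, 399 pairs and 42 triplets of neighbours were members, and 8 longer runs were found. The nearest listed region was one of Doxo alone for 42.0% of members, one of all 3 drugs for 31.3% and another member for 12.1%, where these classes made up 29.5%, 28.7% and 4.40% of all listed regions. For regions of all 3 drugs the nearest listed region was of Doxo alone in 17.6%, of all 3 drugs in 38.2% and a member in 4.58%. The members thus had neighbours of Doxo alone more often, and neighbours of all 3 drugs less often, than the regions of all 3 drugs had. They also had a member as nearest region more often (12.1%) than the members' share of all listed regions (4.40%). These differences were not tested.

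Acla regions were not far from most members. The nearest Acla region was a median of 10833 bp away (quartiles 3169 and 36478 bp), and 2111 members (47.9%) had one within 10 kb. For regions of Doxo alone the median gap was 26308 bp, for regions of diMe-Doxo alone 8505 bp, and for regions of all 3 drugs the next Acla region was 7105 bp away. The 492 members (11.2%) with no Acla region within 100 kb had a median authors' log2 fold of 3.5 with Doxo and 2.17 with diMe-Doxo, and 62.6% of them were called higher with Doxo. Of the 2111 members within 10 kb of an Acla region, 47.2% were called higher, and their median authors' log2 fold was 2.86 with Doxo and 2.07 with diMe-Doxo. Over all regions in both lists, at any distance, 28.9% were called higher. No share at like distances is given for other regions, so the rise with distance cannot be called particular to the members. The 4 members farthest from any Acla region, all more than 1 Mb away and chosen after their values were seen, were on chromosome 15 at 59435307-59436035 and 59663687-59665282, on chromosome 17 at 12876792-12877927 and on chromosome 4 at 39771206-39773522. The first of these had 24.6 and 31.4 control-scaled reads with Doxo, 5.46 and 7.29 with diMe-Doxo and 1 in each control.

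Some stretches held many members. Of 2848 windows of 1 Mb with any listed region, 1361 held no member, and the 57 windows with 10 or more members held 766 (17.4%) of them. The same 57 windows, chosen for their members, held 6.79% of regions of all 3 drugs and 7.93% of regions of Doxo alone. The most members, 24, lay on chromosome 5 at 1-2 Mb, followed by 22 on chromosome 2 at 20-21 Mb, 22 on chromosome 4 at 8-9 Mb, 21 on chromosome 2 at 3-4 Mb and 21 on chromosome 5 at 0-1 Mb. The window on chromosome 5 at 1-2 Mb also held 61 regions of all 3 drugs and 60 of Doxo alone. The window on chromosome 2 at 3-4 Mb held 31 of all 3 drugs and 70 of Doxo alone. Within 5 Mb of the first or last listed region of a chromosome lay 970 members (22.02%), 17.99% of regions of all 3 drugs and 22.1% of regions of Doxo alone.

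The longest run of neighbouring members counted 8 regions over 27473 bp on chromosome 7 at 149498722-149526195. A control peak stood at 4 of the 8. The authors' log2 folds were between 2.48 and 3.03 with Doxo and between 1.53 and 2.43 with diMe-Doxo, and edgeR called 6 of the 8 higher with Doxo. The widest of the 8, at 149499636-149501541, had 176 and 189 control-scaled reads with Doxo, 114 and 98.5 with diMe-Doxo and 36 and 29 in the controls (log2 difference 0.78, edgeR adjusted p 0.000565). The nearest Acla region lay 3219 bp from the edge of the run. The other 7 long runs had 4 members each. On chromosome 4 at 129076413-129433603 a run of 4 stretched over 357190 bp with no Acla region within 406490 bp, and on chromosome 7 at 155595581-155603101 a run of 4 filled 7520 bp, with authors' log2 folds up to 5.18 with Doxo and up to 2.22 with diMe-Doxo. The runs of 4 on chromosome 8 at 140776328-140786875, chromosome 16 at 75566317-75578475 and chromosome 6 at 164169414-164256193 had no member called different between the drugs. Those on chromosome 5 at 172661625-172745808 and chromosome 6 at 43889751-43907447 had 2 each.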

How the data were processed

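The authors deposited 1 list of gained regions per drug, without a header; DiffBind and GRCh37 are named in the submitters' processing notes, with aligner, peak caller, normalization and versions not given in the sources used here. Column meanings were read from the values. The deposited log2 columns are mean normalized reads and the fold of treated over control, the deposited p-value and FDR columns are the authors' own, and the deposited signal per library is a read count times 1 library factor. The deposited counts of peaks give how many libraries had one (0, 1 or 2). All listed p were at most 0.05 and all log2 folds at least 1.5.

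Lists were joined on identical coordinates; no member overlapped an Acla region by 1 bp. Whole reads were recovered from the steps between low values of each library, and 100% of values fell within 0.1 of a whole read. The 2 doxorubicins were compared with edgeR's quasi-likelihood test (Benjamini-Hochberg over 33140 regions, limit 0.05), with library scale from the authors' factors relative to the geometric mean of both controls. TMM, limma-trend (pseudocount 1), DESeq2, a filter of 20 reads and leaving out libraries were tried. The test was checked on simulated data. Planned gene names, GC content and gene positions needed a GRCh37 genome and were not analysed here. Members, lists and tests were chosen with earlier results of these data known. Named regions are the members with the lowest larger FDR (5), highest mean fold (5), greatest width (5) and lowest adjusted p each way (3), the fullest windows (5) and the longest runs, with all tied runs of 4 given. Each listed total of reads covers listed regions only, so full depth is unknown and intervals cover counting error only. Tools were edgeR 4.0.16, limma 3.58.1 and DESeq2 1.42.0 in R 4.3.3, and scipy 1.17.1, pandas 2.3.3, numpy 2.4.6 and matplotlib 3.10.9 in Python 3.11.15.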

Additional observations from a re-analysis of the deposited data

How the results depend on the processing

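In the comparison of Doxo with diMe-Doxo the count of members called higher kept within 1.5 times of 2235 in every setting run, from 1809 to 2116 without 1 treated library, 1914 with TMM, 2186 with limma-trend, 1981 with DESeq2, 2242 after a filter of 20 reads, and 2377 or 2113 when 1 control library set the scale, a setting chosen after seeing the data. The count called lower, 1, was 30 with TMM and 0 to 3 without 1 library (0 without diMe-Doxo replicate 1, 2 without Doxo replicate 1 and 3 without Doxo replicate 2). With 1 library left for a drug, that library is assumed to vary like the others. The median log2 difference over members was between 0.54 and 1.01 in all of these settings. With limits of 0.05 on the FDR and 2 on the log2 fold in both lists the members numbered 1605, of which 83.0% had no control peak, and their median distance to the nearest Acla region was 11650 bp. Under the same limits the members' share of regions in both lists was 1.45% on chromosome 19, 9.44% on chromosome 14 and 6.80% over the genome. Without members that had an Acla region within 10 kb, 2294 remained. Members with no control peak had a median width of 670 bp. No paired analysis was possible because the labels give no replicate numbers that groups share and the libraries carry none. The alternatives for GC content and gene positions were not run, since they need a GRCh37 genome. The depth of the control libraries, at the lowest value of 1 in many regions, limits every fold over control.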
